A study of Mus musculus with 16 samples.

Results

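The genes described here are 38 mouse genes of mitosis and the mitotic spindle, measured in the cardiac ventricle of nulliparous and lactating mice with and without Npr1. Npr1 encodes the receptor through which the natriuretic peptides ANP and BNP raise cGMP. The members were listed by symbol. A probe belonged to a member when its RefSeq accession mapped to that symbol, and the brightest probe, that with the highest mean over 16 arrays, stood for the gene. All 38 members, of 21154 genes with a probe, had at least 1 probe. The 4 groups were nulliparous Npr1+/+ (wild-type), lactating Npr1+/+, nulliparous Npr1-/- (knockout) and lactating Npr1-/- females, with 4 independent mice in each and 1 array per mouse. Lactating mice were taken at 2 weeks of lactation, and the labels give neither strain nor age and name the knockout allele only as Npr1-/-. RNA came from whole ventricular tissue, so cells of every type in the ventricle entered one measurement.

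Progress through mitosis is driven by cyclin A and cyclin B bound to CDK1, together with the kinases of the Polo, Aurora and NEK families. Kinetochores join chromosomes to spindle microtubules, the spindle checkpoint holds the anaphase-promoting complex until all are attached, and the central spindle then guides cytokinesis. Transcripts of these genes peak in G2 and M phase and are low in resting cells. Adult ventricular cardiomyocytes rarely divide, whereas endothelial cells, fibroblasts and macrophages of the heart retain the capacity to do so.

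Levels are given as log2 of the scanner's processed signal over the array's own 75th percentile, so 0 is that percentile and a difference of 1 is a doubling. A probe was counted as measured on an array where the scanner software marked it well above background. Testing with limma over all 16 arrays was limited to the 14063 genes measured in every mouse of 1 or more groups. "Called", "rose" and "fell" mean an adjusted p under 0.05 after the Benjamini-Hochberg procedure over these genes. The 75th percentile of processed signal was 278 to 347 on the lactating arrays and 165 to 221 on the nulliparous arrays other than knockout replicate 4, where it was 284. That array, labelled nulliparous, stood apart from its group in the members as well. Knockout results include it unless stated, and only some are also given without it. The Npr1 probe was well above background on 9 of 16 arrays and did not pass the filter. Its level was -4.47 to -3.62 in nulliparous wild-type and -4.15 to -3.71 in nulliparous knockout mice, so this probe did not separate the genotypes and gives no check of the labels. Whether it lies in the deleted part of the gene was not analysed here. The 10 cardiomyocyte markers were well above background in every group, with a summed signal of 5919 to 9796 times the array's 75th percentile.

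Of the 38 members, 30 passed the filter, and 16 of these were well above background on every array. The other 14 passed only through a lactating group, which makes a lactation difference likely by construction. These 14 were Ccnb1, Cks2, Bub1b, Nuf2, Kif11, Tpx2, Nusap1, Kif4, Kif20a, Kif23, Ect2, Top2a, Cdca3 and Pimreg. The 8 members outside the filter were Cdk1, Nek2, Bub1, Ttk, Aurkb, Cenpf, Kif2c and Dlgap5. Ttk and Dlgap5 were well above background on no array.

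In lactating wild-type ventricle, transcripts of most measured mitotic genes were higher than in nulliparous ventricle. Of the 30 tested members, 26 rose, and 1, the kinetochore gene Ndc80, fell. Among all 14063 genes tested, 31.8% rose and 18.5% fell. The median log2 change of the members was 1.57, against 0.10 over all genes tested. Among the 16 members measured on every array, the widest rise was that of the midzone gene Prc1, at 2.16 ± 0.57 (SE, n = 4 mice per group, adjusted p = 0.0059). In knockout ventricle 26 of 30 members rose and 0 fell, against 25.5% and 18.6% of all genes, with a median of 1.70 against 0.06. Without nulliparous knockout replicate 4, 28 members rose and 0 fell, the median was 2.10, and 30.6% of all genes rose and 22.7% fell. That median takes in members that the other 3 nulliparous knockout arrays did not measure. In bulk tissue, more dividing cells and more RNA per dividing cell cannot be told apart.

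The rises were also present in the 16 members measured on every array, where the filter could not favour a lactating group. In wild-type mice 13 of these rose and 1 fell, against 32.7% and 19.7% of the 12707 genes measured on all arrays. In knockout mice 13 rose and 0 fell, against 26.5% and 19.9%. With no filter, all 38 members could be fitted: 27 were higher and 3 lower in wild-type mice (20.3% and 24% of 21154 genes), and 27 were higher and 1 lower in knockout mice (14.7% and 11.4%). For 23 of the 38 members every lactating wild-type mouse was above every nulliparous one, against 20.7% of all genes. For knockout mice this held for 16 of 38, against 13%. Every lactating mouse was below every nulliparous one for 4 of 38 members in wild-type mice (Cdk1, Ttk, Ndc80 and Cenpf, 14.7% of all genes) and for 1, Cenpf, in knockout mice (10.1%). Of the 16 members measured on every array, 9 separated in this way in each genotype, against 31.3% and 19.3% of genes. The 25 members that rose in both genotypes included 13 of the 16 measured on every array. The share of all genes that rose in both was not counted, so this number is not read as a trait of the members.

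**Figure D1:**
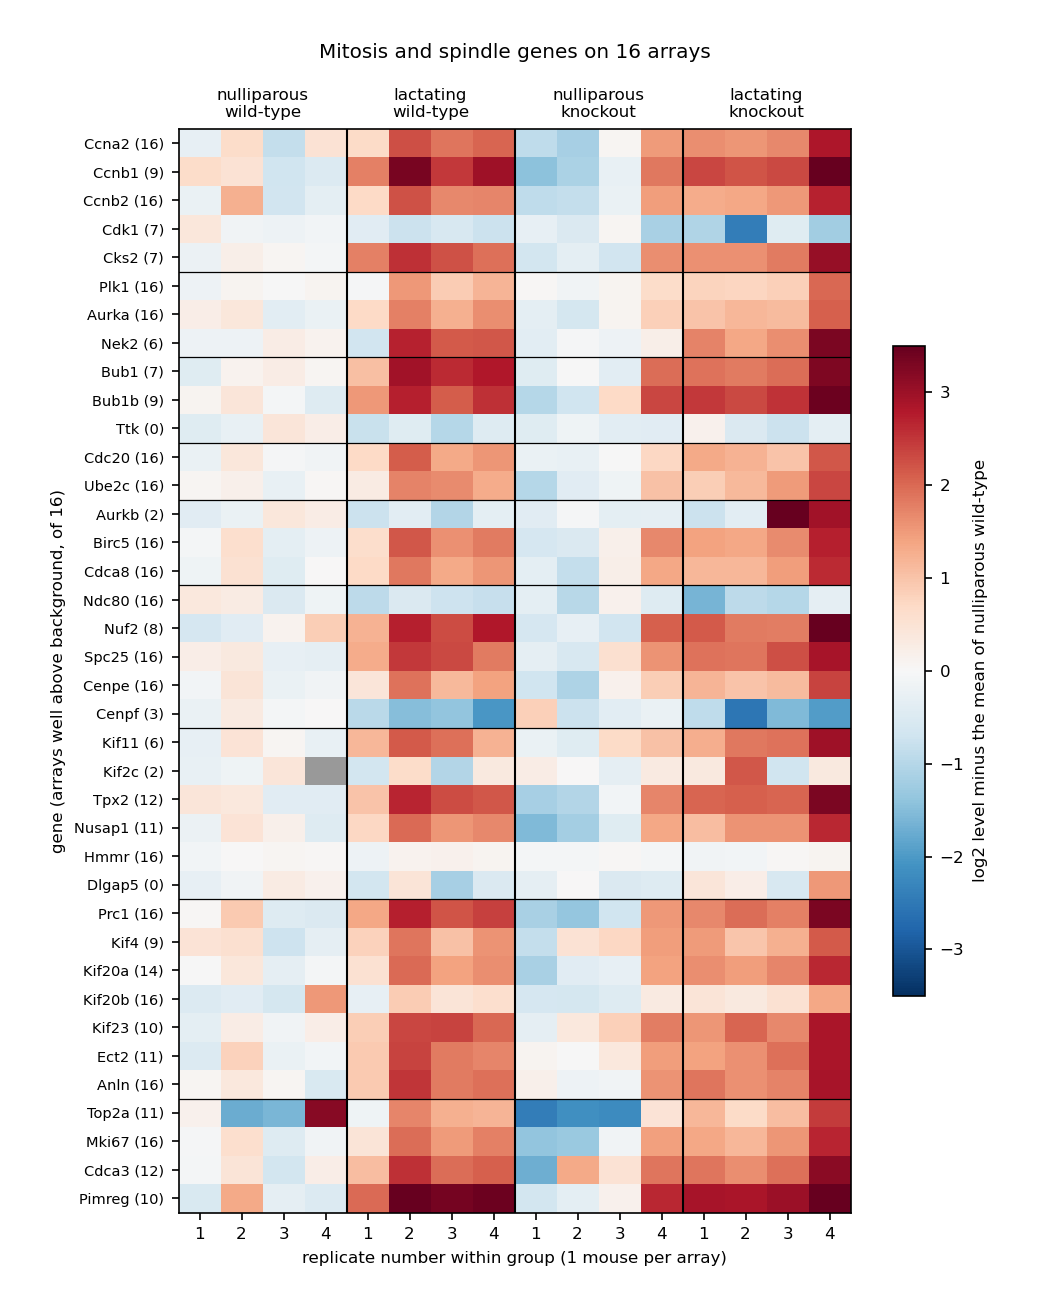
Heat map of the 38 members (rows, ordered by role, with the number of arrays well above background in brackets) on the 16 arrays (columns, 1 mouse each). Colour is the log2 level minus the nulliparous wild-type mean, cut at 3.5 either side, and grey marks the value missing for Kif2c. Most rows are red in both lactating groups and on nulliparous knockout replicate 4, and Cdk1, Ndc80, Cenpf and Hmmr are not. Ttk, Aurkb, Kif2c and Dlgap5 have lower means in lactating than in nulliparous wild-type mice.

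**Figure D2:**
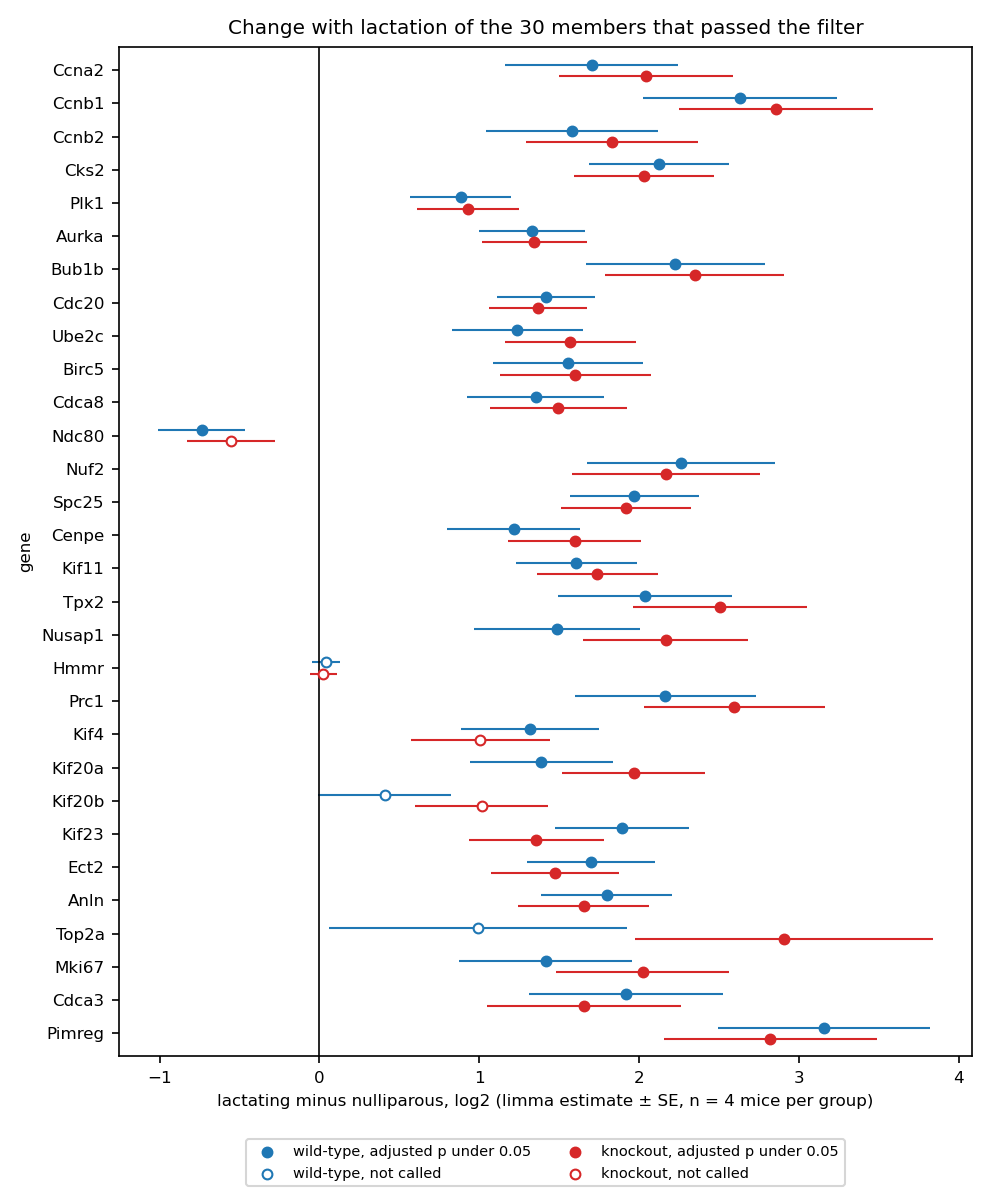
Log2 change from nulliparous to lactating ventricle for the 30 members that passed the filter, with the limma standard error, in wild-type (blue) and knockout (red) mice, 4 mice per group. Filled points have an adjusted p under 0.05. Ndc80 lies below 0 in both, and Hmmr lies at 0.04 and 0.03.

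Promoters of mitotic genes commonly carry the CHR element TTTGAA, through which the MuvB core of the DREAM, B-MYB and FOXM1 complexes binds, near CCAAT boxes bound by NF-Y. RefSeq promoter windows (GRCm38.p6, from 250 bases before to 50 bases after the annotated start) matched 32 of the 38 members. TTTGAA occurred on either strand in 24 of 32 members (75%), against 20.2% of 27025 genes. CCAAT occurred in 25 of 32 (78.1%), against 41.1%, and both motifs in 20 of 32 (62.5%), against 7.97%. The motifs do not overlap in sequence, and a match describes letters and not binding. The 6 windows below are shown because the first 4 belong to members that rose in both genotypes, Ndc80 to the one that fell, and Hmmr to one that was called in neither. Each runs 5′ to 3′ on the gene's strand, and capitals mark each match to a motif on either strand.
Ccnb2: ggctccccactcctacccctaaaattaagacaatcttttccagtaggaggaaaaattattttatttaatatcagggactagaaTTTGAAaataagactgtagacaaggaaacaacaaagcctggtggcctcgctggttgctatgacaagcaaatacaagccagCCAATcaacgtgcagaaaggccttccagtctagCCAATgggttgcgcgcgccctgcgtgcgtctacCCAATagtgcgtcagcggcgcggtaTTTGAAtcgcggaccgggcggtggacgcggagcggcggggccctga
Cdc20: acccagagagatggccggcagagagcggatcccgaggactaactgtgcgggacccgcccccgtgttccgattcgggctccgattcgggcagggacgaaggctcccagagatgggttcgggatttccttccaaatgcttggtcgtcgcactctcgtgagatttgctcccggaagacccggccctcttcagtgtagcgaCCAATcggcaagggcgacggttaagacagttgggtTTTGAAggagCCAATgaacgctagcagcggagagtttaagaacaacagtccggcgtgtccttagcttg
Spc25: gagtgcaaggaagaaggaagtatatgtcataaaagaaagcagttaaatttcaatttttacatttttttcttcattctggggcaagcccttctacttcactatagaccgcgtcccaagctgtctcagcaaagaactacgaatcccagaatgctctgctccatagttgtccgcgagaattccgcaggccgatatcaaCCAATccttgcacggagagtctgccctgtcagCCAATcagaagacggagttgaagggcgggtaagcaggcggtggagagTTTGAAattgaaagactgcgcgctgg
Prc1: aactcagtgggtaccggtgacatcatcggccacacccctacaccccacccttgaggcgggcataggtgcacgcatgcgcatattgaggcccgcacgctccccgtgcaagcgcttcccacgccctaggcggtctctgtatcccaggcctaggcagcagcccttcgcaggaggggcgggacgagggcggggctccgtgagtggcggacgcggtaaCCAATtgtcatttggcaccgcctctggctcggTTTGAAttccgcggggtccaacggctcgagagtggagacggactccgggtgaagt
Ndc80: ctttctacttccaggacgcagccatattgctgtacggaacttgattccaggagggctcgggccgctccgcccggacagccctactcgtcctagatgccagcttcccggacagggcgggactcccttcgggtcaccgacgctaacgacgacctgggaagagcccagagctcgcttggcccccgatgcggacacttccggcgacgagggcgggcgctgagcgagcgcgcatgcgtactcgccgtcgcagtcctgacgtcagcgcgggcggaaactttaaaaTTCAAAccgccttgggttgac
Hmmr: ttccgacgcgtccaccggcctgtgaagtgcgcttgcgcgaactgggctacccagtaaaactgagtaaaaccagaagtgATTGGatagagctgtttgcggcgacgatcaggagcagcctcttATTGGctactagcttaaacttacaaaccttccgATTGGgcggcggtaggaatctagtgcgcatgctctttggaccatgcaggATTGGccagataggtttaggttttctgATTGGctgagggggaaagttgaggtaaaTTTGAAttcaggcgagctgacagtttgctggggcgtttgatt
These windows lie at chr9:70421505-70421804 (Ccnb2, minus strand), chr4:118437294-118437593 (Cdc20, minus), chr2:69206164-69206463 (Spc25, minus), chr7:80294201-80294500 (Prc1, plus), chr17:71526808-71527107 (Ndc80, minus) and chr11:40733388-40733687 (Hmmr, minus). Counting the first transcribed base as 1, TTTGAA began at -18 in Cdc20, 25 in Spc25, -5 in Prc1 and 5 in Ccnb2, with a second copy at -167 in Ccnb2. In these 4 windows CCAAT boxes lay upstream of the start, at -87, -54 and -21 in Ccnb2. A second annotated start of Prc1, whose window is not shown, has TTTGAA at -30 and CCAAT at -62. The Ndc80 window held TTTGAA only on the opposite strand, at 30, and no CCAAT. The Hmmr window held TTTGAA at 9 and 5 CCAAT boxes on the opposite strand, so the 2 motifs were present in a member that was not called as well as in members that rose.

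Among the cyclins and the CDK1 partner, all 4 tested genes rose in both genotypes. Ccnb2, a B-type cyclin measured on every array, was at -1.96, -0.50, -2.42 and -2.08 in nulliparous and -1.06, 0.49, -0.05 and -0.03 in lactating wild-type mice. In knockout mice it was at -2.62, -2.57, -1.98 and -0.28 nulliparous and -0.45, -0.39, -0.23 and 0.95 lactating. Nulliparous replicate 2 in wild-type and replicate 4 in knockout lay within the lactating range, and the other nulliparous mice lay below it. The change was 1.58 ± 0.54 in wild-type (adjusted p = 0.0246) and 1.83 in knockout mice (0.0139), or 2.36 without replicate 4. The wild-type call was lost without nulliparous replicate 1, 3 or 4 or lactating replicate 2, 3 or 4, with an adjusted p of up to 0.071.

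Ccna2, the S and G2 phase cyclin, separated without overlap in both genotypes, with nulliparous wild-type levels of -3.00 to -1.53 and lactating levels of -1.50 to 0.10. Its rise was 1.70 ± 0.54 (adjusted p = 0.0173) in wild-type and 2.04 (0.0081) in knockout mice, and the first was lost without nulliparous replicate 3 (0.055). Ccnb1, the main mitotic cyclin, was well above background on 0 of 4 nulliparous and 4 of 4 lactating wild-type arrays. It was at -4.22, -4.34, -5.55 and -5.33 in nulliparous and -3.08, -1.55, -2.38 and -1.89 in lactating wild-type mice. Since no nulliparous wild-type array measured it, the rise is stated as at least 4.20-fold, with an adjusted p of 0.0027. The fold is counted from the lowest signal of any probe well above background on each nulliparous array, or Ccnb1's own where higher. That signal is not a limit for each probe, so an "at least" fold here and below is not a strict lower bound. In knockout mice Ccnb1 was at -6.29, -5.96, -5.12 and -3.02 nulliparous and -2.52, -2.67, -2.54 and -1.23 lactating, a change of 2.86 (0.0024). Replicate 4 was the only nulliparous knockout array that measured Ccnb1, and the call was kept without it (adjusted p = 3.1e-05), with no size given for lack of a measured nulliparous level. Under normexp, another correction for background, the changes of Ccnb1 were 0.45 and 0.41. Cks2, a small CDK-binding subunit, rose at least 1.71-fold in wild-type (4 of 4 lactating arrays measured) and at least 1.36-fold in knockout mice (3 of 4), against log2 changes of 0.08 and -0.025 under normexp.

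Cdk1, the catalytic partner of these cyclins, had 3 probes that did not move together. The brightest was well above background on 7 arrays and was lower in lactation, by 0.62 on the log2 scale in wild-type and 0.82 in knockout mice, neither called without a filter (adjusted p = 0.156 and 0.0927). The lactating knockout change of this probe was -1.05 without replicate 4, with an adjusted p of 0.0318 in the unfiltered fit. A second probe, A_55_P2048588, was well above background on 0 of 4 nulliparous and 3 of 4 lactating wild-type arrays, and on 1 and 4 of 4 knockout arrays. Its level was -6.51, -5.65, -5.52 and -5.91 in nulliparous and -4.51, -2.79, -3.14 and -3.07 in lactating wild-type mice. It was called higher in lactation in both genotypes, with adjusted p of 0.005 and 0.006 over 28026 probes. No size is given from the processed signal, since no nulliparous wild-type array and 1 nulliparous knockout array measured it, and under normexp its changes were 0.16 and 0.24. The third probe was below background on every array. All 3 probes carry the same RefSeq accession, and which part of the transcript each one reads was not analysed here.

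The mitotic kinases Plk1 and Aurka rose in both genotypes. Aurka, the kinase of centrosomes and spindle poles, was at -2.28, -2.11, -2.88 and -2.75 in nulliparous and -1.82, -0.74, -1.27 and -0.87 in lactating wild-type mice. The groups did not overlap in either genotype, and the changes were 1.33 ± 0.33 (adjusted p = 0.0043) and 1.35 (0.0053). Plk1, the Polo kinase of mitotic entry and exit, rose by less, 0.88 ± 0.32 (0.0322) and 0.93 (0.0290). Lactating wild-type replicate 1, at -1.62, lay inside the nulliparous range of -1.75 to -1.47, and the 3 other lactating mice were above it. Plk1 lost its call without any of 6 arrays in wild-type mice, with an adjusted p of up to 0.1, and without nulliparous replicates 1, 2 or 3 or lactating replicate 4 in knockout mice (up to 0.094). Those 6 arrays were nulliparous replicates 1, 2 and 3 and lactating replicates 2, 3 and 4. Nek2, a centrosomal kinase outside the filter, was well above background on 3 of 4 arrays in each lactating group and on 0 nulliparous arrays, and was at least 1.02-fold and 1.19-fold higher in lactating wild-type and knockout mice in the unfiltered fit (adjusted p = 0.0413 and 0.0184), against log2 changes of -0.022 and -0.047 under normexp.

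Of the spindle checkpoint kinases, only Bub1b passed the filter, and it rose in both genotypes. Bub1b, which encodes the BUBR1 inhibitor of the anaphase-promoting complex, was at -5.47, -5.13, -5.61 and -6.01 in nulliparous wild-type mice, all below background. In lactating wild-type mice it was at -4.05, -2.83, -3.44 and -2.99, at least 2.21-fold higher (adjusted p = 0.0046). The knockout change was 2.35 ± 0.56 (0.0045). Nulliparous replicate 4, the only nulliparous knockout array that measured Bub1b, lay at -3.23, within the lactating range of -3.24 to -2.12, and the call was kept without it (4.2e-05). Bub1, the kinase that recruits checkpoint proteins to kinetochores, was measured on 3 of 4 arrays in each lactating group. It was at least 1.79-fold higher in lactating wild-type mice in the unfiltered fit (0.0042), and 1.94 higher on the log2 scale in knockout mice (0.0162), where 1 of 4 nulliparous arrays measured it and the change was -0.019 under normexp. Ttk, the MPS1 kinase, was below background throughout, at -6.80 to -5.37. Its unfiltered change in wild-type mice was -0.66 with an adjusted p of 0.0218, and the 4397 genes well above background on no array had a median change of -0.63 in that comparison, 55.4% of them called lower.

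Both members that act on the anaphase-promoting complex rose. Cdc20, the activator that brings the complex its substrates, was at -1.03, -0.40, -0.83 and -0.91 in nulliparous and -0.09, 1.32, 0.53 and 0.75 in lactating wild-type mice. Knockout levels were -1.03, -1.04, -0.81 and -0.06 nulliparous and 0.52, 0.41, 0.22 and 1.37 lactating. No lactating mouse overlapped a nulliparous mouse of its genotype, replicate 4 included. Cdc20 rose 2.67-fold in wild-type (1.42 ± 0.31, adjusted p = 0.0018) and 2.58-fold in knockout mice (1.37, 0.0033). Ube2c, its ubiquitin-conjugating enzyme, rose by 1.24 ± 0.41 (0.0216) and 1.57 (0.0076), and a second Ube2c probe rose by 1.64 and 1.72. The wild-type Ube2c call was lost without nulliparous replicate 3 or lactating replicate 2 or 3 (up to 0.063).

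In the chromosomal passenger complex, which corrects faulty attachments and later acts at the midzone, the scaffold genes Birc5 (survivin) and Cdca8 (borealin) rose. Birc5 was at -1.51 to -0.60 in nulliparous and -0.56 to 1.01 in lactating wild-type mice, without overlap, and changed by 1.55 ± 0.47 (adjusted p = 0.0135) and by 1.60 in knockout mice (0.0139). Cdca8 changed by 1.35 ± 0.43 (0.0175) and 1.50 (0.0125), and the wild-type call was lost without lactating replicate 2 (0.052). A second Cdca8 probe, measured on 10 arrays, was 0.57 higher in wild-type mice without a call (0.38) and rose by 2.04 in knockout mice (0.0094). Aurkb, the kinase of the complex, was well above background on 2 arrays only, lactating knockout replicates 3 and 4, at -2.17 and -2.89. The other 14 Aurkb values lay between -6.86 and -5.43, and the unfiltered changes of -0.63 and 1.64 were not called (0.527 and 0.131).

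The kinetochore genes were the most divided group, with 3 higher and 1 lower of 4 tested in wild-type mice. Ndc80 and its partners Nuf2 and Spc25 belong to one microtubule-binding complex. Spc25 was at -1.81, -1.70, -2.32 and -2.35 in nulliparous and -0.76, 0.42, 0.27 and -0.23 in lactating wild-type mice. The corresponding knockout levels were -2.37, -2.60, -1.48 and -0.48 nulliparous and -0.14, -0.16, 0.20 and 0.85 lactating. The rise of 1.97 ± 0.40 (adjusted p = 0.0013) in wild-type and 1.92 (0.0024) in knockout mice, without overlap in either, was among the members' smallest adjusted p-values. Nuf2 was below background on all nulliparous wild-type arrays and rose at least 1.63-fold (3 of 4 lactating arrays measured), with a change of 2.17 ± 0.59 in knockout mice (0.0090), where 1 of 4 nulliparous arrays measured it. Under normexp the Nuf2 changes were 0.12 in wild-type and 0.07 in knockout mice. A second Nuf2 probe, well above background on no array, changed by -0.63 in wild-type mice (0.0175 over 28026 probes) and -0.26 in knockout mice (0.323). Genes well above background on no array had a median wild-type change of -0.63.

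Ndc80 moved the other way. It was at -2.18, -2.28, -3.06 and -2.72 in nulliparous and -3.49, -3.08, -3.27 and -3.35 in lactating wild-type mice, so every lactating mouse lay below every nulliparous one. In knockout mice it was at -2.91, -3.54, -2.41 and -3.01 nulliparous and -4.18, -3.47, -3.57 and -2.87 lactating, with overlap. The change was -0.74 ± 0.27 (adjusted p = 0.0364) in wild-type and -0.55 (0.113) in knockout mice, and the difference between these changes was not called in the interaction test. The wild-type call was lost without nulliparous replicate 1 or 2 or lactating replicate 1, 3 or 4 (up to 0.1). Ndc80 was the only one of 16 members measured on every array that was called lower, against 19.7% of genes measured on every array.

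Cenpe, the kinesin that carries chromosomes to the spindle equator, rose by 1.22 ± 0.41 (adjusted p = 0.0246) and 1.60 (0.0072), and its wild-type call was lost without nulliparous replicate 1, 3 or 4 or lactating replicate 2 or 4 (up to 0.078). Cenpf, a large outer kinetochore protein, was well above background on 1 nulliparous wild-type array, 2 nulliparous knockout arrays and no lactating array. Its level was -3.81, -3.27, -3.65 and -3.56 in nulliparous and -4.52, -5.06, -4.95 and -5.62 in lactating wild-type mice. Every lactating mouse was below every nulliparous mouse of its genotype, and Cenpf was called lower in both genotypes in the unfiltered fit (0.0073 and 0.0065). No fold is given, since most nulliparous arrays did not measure it, and its changes under normexp were -0.52 and -0.67. The 4397 genes below background on every array had medians of -0.63 in wild-type and -0.28 in knockout mice, with 55.4% and 1.96% called lower.

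Among genes of spindle assembly, Kif11, Tpx2 and Nusap1 rose in both genotypes and Hmmr was called in neither. Tpx2, the activator and spindle anchor of Aurora A, was at -3.51, -3.55, -4.33 and -4.32 in nulliparous and -2.92, -1.25, -1.64 and -1.76 in lactating wild-type mice. Knockout mice had levels of -5.08, -4.95, -4.01 and -2.23 nulliparous and -1.90, -1.83, -1.90 and -0.62 lactating. Its rise was 2.04 ± 0.55 (adjusted p = 0.0068) and 2.51 (0.0028), with no overlap. Only 2 of 4 nulliparous arrays in each genotype measured it, and under normexp the changes were 0.53 and 0.62. A second Tpx2 probe, for another RefSeq transcript, gave changes of 0.00 and -0.84. Kif11, the motor that pushes spindle poles apart, was below background on every nulliparous array and rose at least 1.30-fold in wild-type (2 of 4 lactating arrays measured) and 1.47-fold in knockout mice (4 of 4), against log2 changes of -0.084 and -0.047 under normexp.

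Nusap1, which bundles microtubules near chromosomes, passed the filter only through a lactating group and rose by 1.49 ± 0.52 (adjusted p = 0.0274) and 2.17 (0.0046). Its wild-type call was lost without nulliparous replicate 1 or 4 or lactating replicate 2, 3 or 4 (up to 0.073). Hmmr, which encodes a hyaluronan receptor that also binds spindle microtubules, stayed between -0.09 and 0.24 on all 16 arrays. It was the member with the smallest spread, and its changes were 0.04 ± 0.09 and 0.03 ± 0.09 (0.708 and 0.833). Kif2c, a microtubule depolymerase, was well above background on 2 arrays, and Dlgap5, a spindle-stabilising protein, on none. Neither was called without a filter, with changes of -0.16 and 0.47 for Kif2c, fitted without nulliparous wild-type replicate 4, whose spot was an outlier, and of -0.46 and 0.72 for Dlgap5.

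All 7 members of the central spindle and cytokinesis were tested, of which 6 rose in wild-type and 5 in knockout mice, or 7 without nulliparous knockout replicate 4. Prc1, which bundles antiparallel microtubules at the midzone, was at -2.09, -1.23, -2.59 and -2.65 in nulliparous and -0.79, 0.57, 0.06 and 0.27 in lactating wild-type mice. Among knockout mice the levels were -3.27, -3.48, -2.84 and -0.62 nulliparous and -0.45, -0.17, -0.36 and 1.16 lactating. Prc1 rose 4.48-fold (2.16 ± 0.57, adjusted p = 0.0059) and 6.04-fold (2.59, 0.0028), without overlap, the widest change among the 16 members measured on every array. Anln, the scaffold of the contractile ring, rose by 1.80 ± 0.41 (0.0025) and 1.65 (0.0056), also without overlap. Ect2, the activator of RhoA at the cleavage site, rose by 1.70 ± 0.40 (0.0031) and 1.47 (0.0094), but passed the filter only through a lactating group.

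The kinesins Kif20a and Kif23, which build the midzone with Prc1, rose in both genotypes, and Kif4 and Kif20b differed in their calls. Kif20a rose by 1.39 ± 0.45 (adjusted p = 0.0183) and 1.97 (0.0035), and lost its wild-type call without lactating replicate 2 (0.057). Kif20a passed the filter only through a lactating group. Kif23, below background on all nulliparous wild-type arrays, rose at least 2.77-fold there, and by 1.36 ± 0.42 in knockout mice (0.0182), where the call was lost without nulliparous replicate 1 or 2 or lactating replicate 4 (up to 0.066). Kif4, a chromosome-associated kinesin, rose at least 1.56-fold in wild-type mice (0.0203), was 1.01 ± 0.43 higher in knockout mice (0.0715), and was called there without nulliparous replicate 4 (0.0166), the only nulliparous knockout array that measured it. Its log2 changes under normexp were -0.078 and -0.12. The wild-type Kif4 call was lost without nulliparous replicate 3 or 4 or lactating replicate 2 (up to 0.066).

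Kif20b, a kinesin of late cytokinesis, was at -2.87, -2.79, -3.00 and -0.88 in nulliparous and -2.67, -1.50, -1.94 and -1.80 in lactating wild-type mice. Nulliparous replicate 4 was above all lactating mice and the other 3 nulliparous mice were below them. The wild-type change was 0.41 ± 0.42 (adjusted p = 0.438) with that array and 0.91 (0.0233) without it. In knockout mice the lactating range of -2.03 to -1.04 lay above the nulliparous range of -3.01 to -2.09, with a change of 1.01 (0.0613), or 1.23 (0.0314) without nulliparous replicate 4.

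Of the 4 remaining members, all rose in knockout mice and 3 in wild-type mice. Mki67, the marker of cycling cells, was at -0.42, 0.18, -0.83 and -0.51 in nulliparous and 0.06, 1.56, 1.09 and 1.37 in lactating wild-type mice. Knockout levels were -1.78, -1.71, -0.50 and 1.03 nulliparous and 0.97, 0.76, 1.15 and 2.26 lactating. One mouse in each comparison crossed into the other group, lactating wild-type replicate 1 and nulliparous knockout replicate 4. The rise was 1.42 ± 0.54 (adjusted p = 0.0418) and 2.02 (0.0086), or 2.61 without that knockout array. A second Mki67 probe, also measured on every array, was 1.08 higher in wild-type mice without a call (0.12) and rose by 1.84 in knockout mice (0.0224). The wild-type call of the brightest probe was lost without nulliparous replicate 1, 3 or 4, lactating replicate 2, 3 or 4, or lactating knockout replicate 3, with an adjusted p of up to 0.1.

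Top2a, which untangles sister chromatids, was the most variable member in nulliparous wild-type mice, at -3.66, -5.55, -5.39 and -0.61, against -3.96, -2.09, -2.57 and -2.63 in lactating mice. The nulliparous group spanned the lactating one, with replicate 4 the highest of all 16 arrays. The wild-type change was 0.99 ± 0.93 (adjusted p = 0.397), and 2.06 (0.0304) without that array. In knockout mice Top2a was at -6.24, -5.96, -6.01 and -3.32 nulliparous and -2.65, -3.15, -2.73 and -1.36 lactating, without overlap, a change of 2.91 (0.0214). Replicate 4 was the only nulliparous knockout array that measured Top2a, and the call was kept without it (0.0051). It was lost without nulliparous replicate 1, 2 or 3 or lactating replicate 4 (up to 0.063).

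Pimreg, a regulator of the metaphase-to-anaphase transition, was measured on 1 of 4 nulliparous and 4 of 4 lactating arrays in each genotype. It was at -5.06, -3.18, -4.83 and -4.99 in nulliparous and -2.53, -0.63, -1.17 and -1.09 in lactating wild-type mice. In knockout mice it was at -5.15, -4.85, -4.36 and -1.88 nulliparous and -1.63, -1.66, -1.52 and -0.14 lactating. No nulliparous mouse reached a lactating mouse of its genotype, and the changes were 3.16 ± 0.66 (adjusted p = 0.0015) in wild-type and 2.82 (0.0042) in knockout mice, or 0.91 and 0.83 under normexp. The knockout call was kept without replicate 4 (9.3e-05), the only nulliparous knockout array that measured it. Cdca3, which promotes mitotic entry, rose by 1.92 ± 0.61 (0.0172) and 1.65 (0.0392), having passed the filter only through a lactating group. Its knockout call was lost without nulliparous replicate 1 or 3 or lactating replicate 1, 3 or 4 (up to 0.12).

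**Figure D3:**
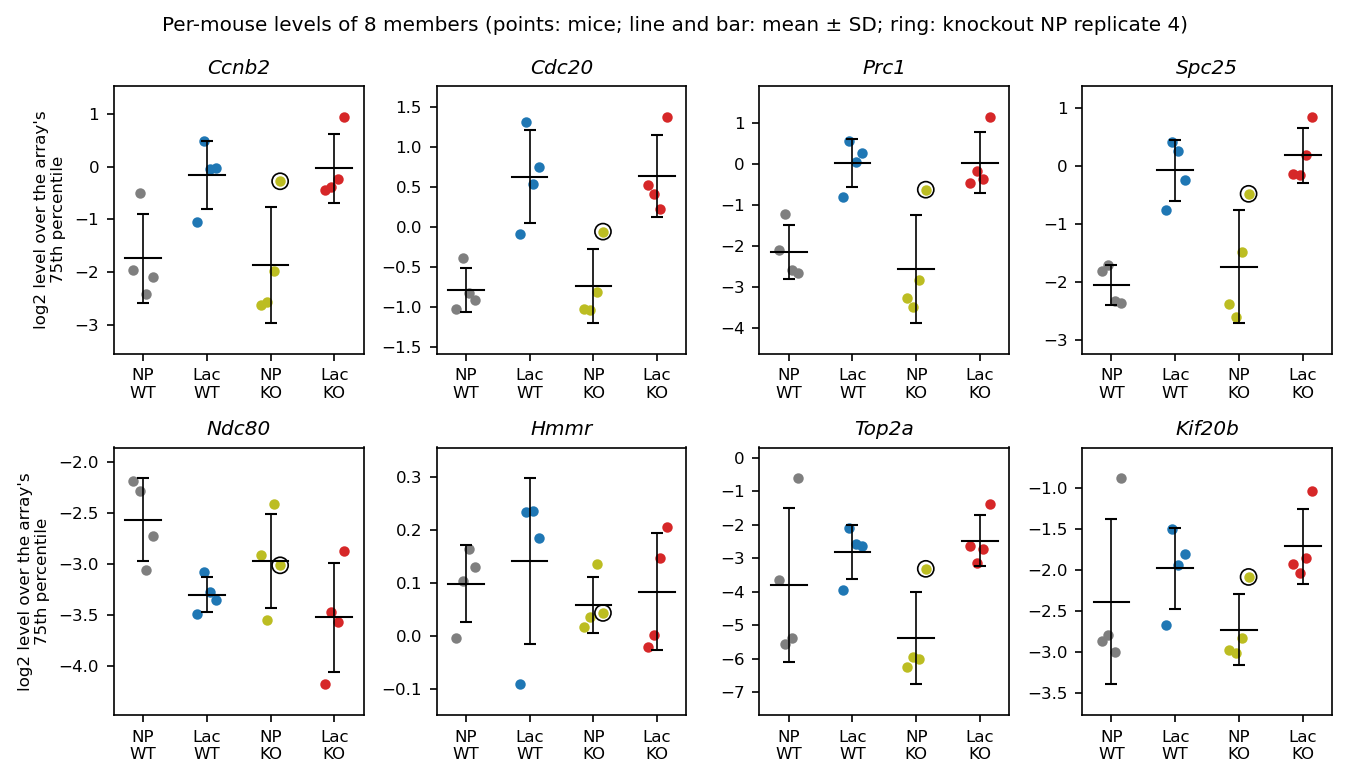
Log2 level over the array's 75th percentile of 8 members in each mouse (points), with group mean and SD (bars), for nulliparous (NP) and lactating (Lac) wild-type (WT) and knockout (KO) mice; each panel has its own scale. Ccnb2, Cdc20, Prc1 and Spc25 are higher in lactation, Ndc80 is lower in lactating wild-type mice, Hmmr spans -0.09 to 0.24, and in Top2a and Kif20b 1 nulliparous wild-type mouse lies above the lactating mice. The ringed nulliparous knockout replicate 4 is the highest of its group in 6 of the 8 panels.

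The members varied together between mice of one group. Lactating knockout replicate 4 was the highest of its group in 30 of 30 tested members, against 26.4% of all genes. Lactating wild-type replicate 1 was the lowest of its group in 30 of 30 (22%), and replicate 2 the highest in 27 of 30 (21.1%). The median level of the 16 members measured on every array was -1.31, 0.05, -0.17 and -0.29 in lactating wild-type and -0.63, -0.61, -0.39 and 0.64 in lactating knockout mice. In nulliparous wild-type mice it was -1.99, -1.50, -2.36 and -1.78, so lactating replicate 1 was closer to these than to its own group.

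Nulliparous knockout replicate 4 was the highest of its group in 28 of 30 tested members, against 38.7% of all genes. The other 3 nulliparous knockout mice had median levels of -2.53, -2.66 and -1.92 over the 16 members, and replicate 4 had -0.64, next to the lowest lactating knockout value of -0.63. Its median shift over the other 3 was 1.75, against 0.04 over all genes. Among the 16 members measured on every array the shift was largest for Prc1 (2.58), Mki67 (2.36) and Ccna2 (2.16), and was -0.06 for Ndc80 and -0.02 for Hmmr. On that array 11 of 12 macrophage markers were also the highest of the group, with a median shift of 0.88, as were 3 of 3 mesothelial markers (1.12). The lowest of the group were 7 of 10 cardiomyocyte markers (-0.21) and 5 of 10 endothelial markers (-0.14). The share of all genes lowest on that array was not counted. The part of these cell types in the members' levels was not tested.

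**Figure D4:**
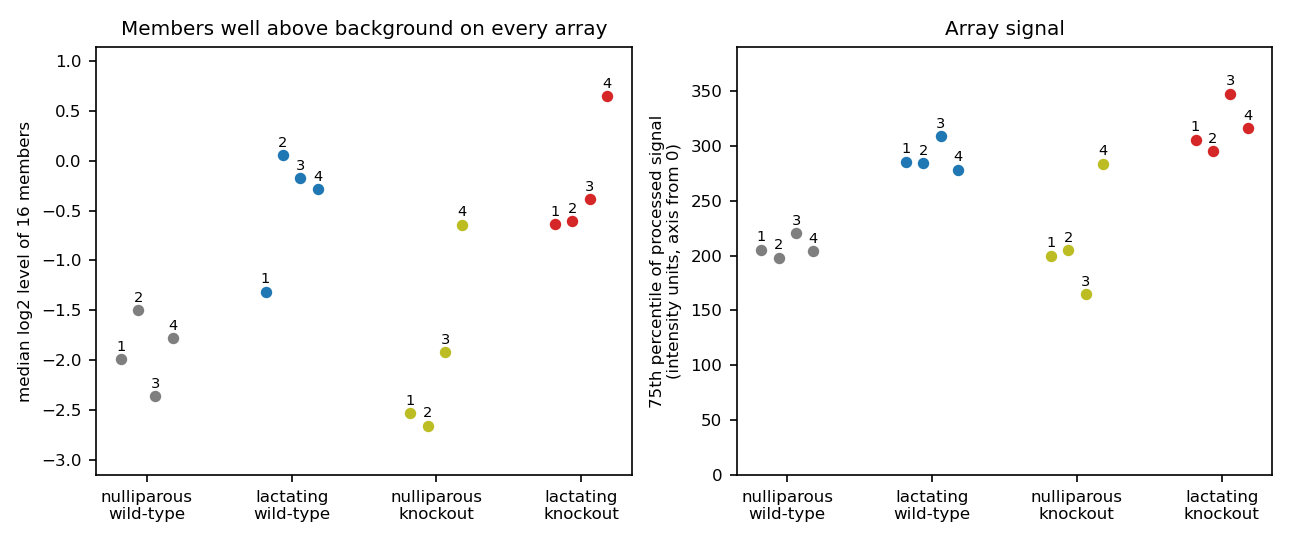
Left, median log2 level of the 16 members measured on all arrays, for each mouse by group; right, the 75th percentile of processed signal on the same arrays (linear axis from 0), with the replicate number beside each point. Nulliparous knockout replicate 4 lies at -0.64 and 284, with the lactating arrays in both panels, and lactating wild-type replicate 1 lies at -1.31 on the left and within its group on the right.

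The size of the changes depended on how background was treated. The processed signal of the scanner was used for the values above. With a normexp correction of median signal and local background, which adds 50 units before the log, 14 members rose and 1 fell in wild-type mice (30.4% and 20.7% of all genes), and 17 rose and 1 fell in knockout mice (26% and 22%). The medians were 0.47 and 0.52. Among the 16 members measured on every array, 11 and 12 rose, with medians of 0.83 and 0.90. Among the 14 others, 3 and 5 rose, which is near the 30.4% and 26% of all genes and does not set them apart. Prc1 changed by 1.26 and 1.31 and Spc25 by 1.15 and 1.14 under this correction, and Ndc80 fell in both genotypes (-0.45 in each). Kif11 changed by -0.084 and -0.047, Kif4 by -0.078 and -0.12, and Cks2 by 0.08 and -0.025, none called, so the direction of Kif11 and Kif4 in both genotypes and of Cks2 in knockout mice was not kept. Nor was that of Top2a in wild-type mice (-0.10), which was called under neither treatment.

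**Figure D5:**
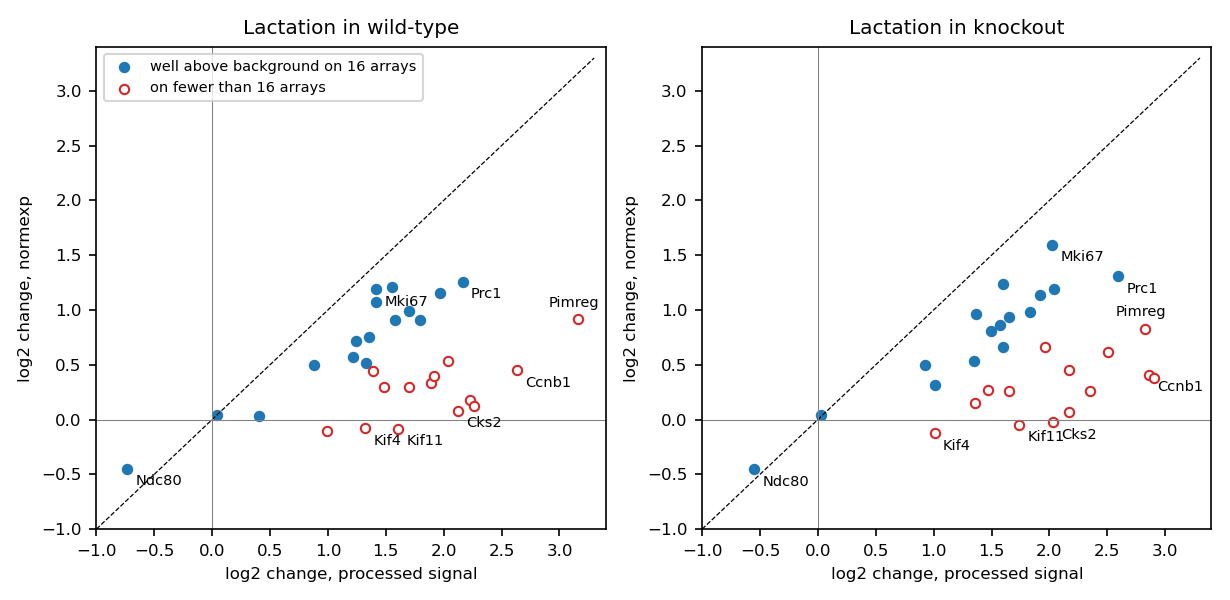
Log2 change with lactation of the 30 tested members from the processed signal (x axis) and after normexp with an offset of 50 (y axis), in wild-type (left) and knockout (right) mice; the dashed line marks equal changes. Members measured on all 16 arrays (filled) keep changes of up to 1.26 and 1.60, and those measured on fewer arrays (open) lie nearer to 0 on the y axis.

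Knockout and wild-type ventricles were compared within each state. In nulliparous mice 0 of 30 members were called (0 at an unadjusted p under 0.05), against 0.0996% of all genes, with a median difference, knockout minus wild-type, of -0.0069. The differences ran from -1.58 for Top2a to 0.67 for Kif23. Without nulliparous knockout replicate 4 the median was -0.36, with 4 members lower at an unadjusted p under 0.05 and 0 called (0.128% of all genes). In lactating mice 0 members were called (0 unadjusted) against 0.199% of all genes, with a median of 0.21 and a range from -0.22 for Ndc80 to 0.48 for Kif20a. The difference between the lactation changes of the genotypes, tested as an interaction, was called for 0 of 30 members (0 unadjusted, smallest adjusted p = 0.853), against 0.0924% of all genes. For Kif4 it was -0.31 (0.946) and for Kif20b 0.61 (0.883). For Top2a it was 1.92 (0.853), and 0.85 without nulliparous wild-type replicate 4. Without nulliparous knockout replicate 4, 2 members had an unadjusted interaction p under 0.05 and 0 were called (0.142% of all genes). The lactation comparisons share no arrays, and each genotype comparison uses the same groups again.

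Of a wider list of 85 other mitosis genes, 65 were tested. In wild-type mice 29 rose and 3 fell (Mis12, Cdc23 and Cdc27), against 31.8% and 18.5% of all genes, with a median of 0.54 against 0.10. In knockout mice 27 rose and 1 fell (Cdc27), against 25.5% and 18.6%, with a median of 0.50 against 0.06, or 40 and 1 without nulliparous replicate 4 (30.6% and 22.7%). The genes that fell are named with their values already seen. Cdc23 and Cdc27 encode subunits of the anaphase-promoting complex itself. Cdc23 fell by 1.14 in wild-type mice (adjusted p = 4.1e-05) and was at -0.08 in knockout mice (0.615). Cdc27 fell in both, by 0.57 and 0.65 (0.0018 and 0.0014). Of the others with the smallest adjusted p, Fzr1, the late activator of the complex, rose by 0.77 in wild-type mice, the centromere gene Cenpc1 by 0.64 and the checkpoint gene Bub3 by 0.54. In knockout mice these were the spindle gene Ckap2 at 2.56, the NDC80 complex gene Spc24 at 0.68 and the centromere gene Cenpn at 1.98. Ckap2 and Cenpn were measured on 9 arrays, of which 1 was nulliparous, and changed by 0.20 and -0.04 under normexp in knockout mice, so their size or sign depended on the background.

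All 16 listed regulators of mitotic transcription were tested. In wild-type mice 7 rose and 1 fell, against 31.8% and 18.5% of all genes, with a median of 0.38. In knockout mice 8 rose and 1 fell, against 25.5% and 18.6%, with a median of 0.41. Foxm1, an activator of G2 and M phase genes, rose by 0.76 ± 0.24 in wild-type mice (adjusted p = 0.0183) and was 0.53 higher in knockout mice (0.0937). Mybl2, which encodes B-MYB, was 0.46 and 0.65 higher and was called in neither (0.173 and 0.0669). Of the MuvB core, Lin54, the subunit that contacts the CHR element, rose by 0.55 (0.0024) and 0.41 (0.0161). Lin37 (0.13 and 0.20) and Lin52 (0.18 and 0.26) were called in knockout but not in wild-type mice, and Lin9 (0.27 and 0.27) in neither.

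The pocket protein gene Rbl1 rose by 0.60 and 0.76 (adjusted p = 0.0274 and 0.0102), and Rbl2 by 0.29 in wild-type mice (0.0470), with 0.19 in knockout mice (0.179). E2f1 and E2f2, activators of S phase genes, were 0.42 and 0.34 higher in wild-type mice without a call and rose by 1.03 and 0.78 in knockout mice (0.0331 and 0.0280). E2f7 rose by 0.60 in wild-type mice (0.0347) with 0.22 in knockout mice, E2f8 fell by 0.52 in wild-type mice (0.0162) with 0.01 in knockout mice, and E2f4 was called in neither (0.13 and 0.54). For NF-Y, which binds CCAAT, Nfya rose by 0.61 and 0.41 and Nfyb by 0.47 and 0.84 in wild-type and knockout mice. Nfyc was at -0.09 in wild-type and fell by 0.23 in knockout mice (0.0334). Differences between the genotypes in these changes are not claimed from the calls.

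Of 41 genes of DNA replication, which act before mitosis, 37 were tested. In wild-type mice 12 rose and 4 fell, with a median of 0.27, and the share that rose was near the 31.8% of all genes (18.5% fell). In knockout mice 11 rose and 2 fell, with a median of 0.34, against 25.5% and 18.6% of all genes, or 20 and 2 without nulliparous replicate 4 (30.6% and 22.7%). In wild-type mice the smallest adjusted p belonged to the primase gene Prim2 (8.1e-05, measured on no nulliparous wild-type array, 1.32 under normexp), the helicase gene Mcm7 (-0.42), the sliding clamp gene Pcna (0.92) and the cyclin E gene Ccne1 (0.97). In knockout mice it belonged to Tyms (0.56, and -0.016 under normexp), which makes thymidylate, Gins2 (1.54), a helicase subunit, Uhrf1 (1.19), which maintains DNA methylation, and Ccne1 (0.90).

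Markers of the cell types in ventricle were read beside the members. Over all genes tested, 31.8% rose and 18.5% fell in wild-type lactation, and 25.5% and 18.6% in knockout lactation. Counts near these shares do not set a list apart. Of 12 macrophage markers, 8 rose and 1 fell in wild-type lactation (median 0.90) and 9 rose and 1 fell in knockout lactation (median 1.14). Their summed signal, in multiples of the array's 75th percentile, was 137 to 178 in lactating and 216 to 227 in nulliparous wild-type mice, and 131 to 159 in lactating and 149 to 270 in nulliparous knockout mice, and 1 probe carried most of that sum: Itgam was 90.6 on average over lactating and 189 over nulliparous arrays. Of 10 fibroblast markers 5 rose and 2 fell in wild-type and 6 rose and 1 fell in knockout mice, with summed signals of 361 to 437 and 376 to 449 in nulliparous and lactating wild-type mice. Of 10 endothelial markers 2 rose and 2 fell, and 3 rose and 2 fell. Of 10 cardiomyocyte markers 3 rose and 3 fell, and 2 rose and 6 fell, and of 10 smooth muscle and pericyte markers 1 rose and 4 fell in each genotype. No lymphocyte marker of 7 rose, 3 and 4 of 7 erythroid markers rose, and 3 and 2 of 3 mesothelial markers rose. No marker of the macrophage, fibroblast, endothelial or cardiomyocyte list was below background on all arrays. The part of these cell types in the members' change was not tested.

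The 2 slides each held 2 arrays of every group, and all 27 members called in wild-type mice and all 26 called in knockout mice had the same sign of change within both slides. The calls were made on these same arrays, so this agreement was likely by construction and is not a replication. Within slide 1 the members' medians were 1.31 in wild-type and 1.96 in knockout mice, and within slide 2 they were 1.91 and 1.47. As every group occupied identical positions on the 2 slides, position and group cannot be told apart. Without lactating wild-type replicate 2, the array with the highest levels of its group, 18 members were called in wild-type mice. The share of all genes called in that fit was not counted, so the lower number is not read as a trait of the members.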

How the data were processed

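Total RNA from ventricular tissue was labelled with Cy3 and hybridised to 1-colour Agilent arrays, 1 mouse per array. The deposited scanner files hold spot intensity, background and quality columns from Agilent Feature Extraction (version 10.7.3.1), as the submitters' processing notes name it and per the file headers. The authors' deposited value table holds log2 values. Over 24445 bright probes each of its columns correlated at r = 1 with the log2 scale used here, centred on the nulliparous wild-type mean, with column medians from -0.38 to 0.03.

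Control spots and outlier spots were left out and spots of a probe averaged. Of 55681 probes, 28026 were named through RefSeq accessions. Log2 processed signal minus each array's 75th percentile was fitted with limma 3.58.1 (R 4.3.3) as 4 group means over 16 arrays, with 12 residual degrees of freedom, 5 contrasts and Benjamini-Hochberg adjustment. The filter, the threshold and the "at least" folds are as given above. An "at least" fold sets the brighter group's mean against the lowest signal well above background, or the dim probe's own where higher, on each dim array. That lowest signal can come from any probe, so the fold is not a strict lower bound. Normexp (offset 50) used median foreground, the files holding no mean foreground. The fit was tested on simulated data. Figures were drawn with matplotlib 3.10.9.

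The members and all lists were chosen with earlier results of these data known. All members are named. Of the wider lists, up to 4 called genes per lactation comparison with the smallest adjusted p are named, and every regulator. The number of arrays limits the precision. Alternatives were filters, background, scaling, probe averaging, variance models, slide and replicate blocks, single slides, the authors' table, and each array left out in turn.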

Additional observations from a re-analysis of the deposited data

Results flagged for a closer look

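In 20 of 151 groups of 4 mice (13.2%), 1 mouse lay apart from the other 3 by a gap over Dixon's limit for groups of this size. Chance flags about 1 in 20 groups, and over all genes tested 5.64% to 7.7% of groups were flagged. Since the members vary together between mice, these flags are not independent of each other.

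Lactating knockout replicate 4 was the high mouse in 10 of these groups, at a level of 0.68 for Ccna2, -1.23 for Ccnb1, 0.95 for Ccnb2, -2.75 for Cks2 and 0.45 for Plk1. It was also apart for Aurka (-0.42), Bub1 (-2.71), Cenpe (0.20), Tpx2 (-0.62) and Pimreg (-0.14). These genes span cyclins, kinases, kinetochore and spindle proteins.

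Nulliparous knockout replicate 4 was the high mouse for Cks2 (-4.18), Bub1 (-4.00), Nuf2 (-3.67) and Top2a (-3.32). Lactating wild-type replicate 1 was the low mouse for Nek2 (-6.66) and Hmmr (-0.092). In nulliparous wild-type mice, replicate 1 was high for Cdk1 (-3.23), replicate 2 for Pimreg (-3.18) and replicate 4 for Kif20b (-0.88). In nulliparous knockout mice, replicate 2 was high for Ttk (-5.94), a probe below background on every array.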

How the results depend on the processing

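Lactation calls (27 members in wild-type and 26 in knockout mice) stayed within 1.5 times under no filter, quantile or median scaling, probe averaging, trended or weighted fits, the slide block and the authors' table. They numbered 14 and 13 among genes measured on all 16 arrays (16 members tested), and 15 in wild-type mice under normexp, with medians of 0.47 and 0.52. Within slide 1 they numbered 11 in wild-type mice, and within slide 2 they were 0 and 0. With normexp and no filter, chosen after seeing the data, the medians were 0.32 and 0.35. Under normexp Kif11 (-0.084) and Kif4 (-0.078) reversed in wild-type mice and Cks2 (-0.025) and Kif11 (-0.047) in knockout mice; the cause was not tested. The share of all genes called was not counted for single slides, or for arrays left out other than nulliparous knockout replicate 4. Leaving out 1 array gave 18 to 27 wild-type calls (medians 1.35 to 1.81) and 22 to 28 knockout calls (1.39 to 2.10). The median knockout difference was -0.36 to 0.20 in nulliparous and -0.09 to 0.41 in lactating mice, with 0 genotype or interaction calls. In nulliparous mice it was -0.80 within slide 1 and 0.94 within slide 2, which holds knockout replicate 4. The replicate block gave 26 and 27 calls, and same-numbered deviations correlated at -0.14 to 0.18. Differently numbered samples were not compared, so these values do not show whether the numbers pair the samples. Signal over background limits the 14 members measured on fewer arrays and the 8 outside the filter.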
